A study of Rattus norvegicus with 15 samples.

Results

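The comparison described here is that between rats given an extinction test after 30 days of withdrawal from cocaine (30C, 3 arrays) and rats withdrawn for the same time without a test (30W, 3 arrays). These are 6 of the 15 arrays of the series, chosen by their titles, and the description covers the 11778 genes with a single symbol and a value above the filter, of 14497 genes with a single symbol. All were nucleus accumbens samples from male Sprague-Dawley rats of 250 to 350 g, implanted with a cannula and a jugular catheter. Both groups had pressed a lever for cocaine, 6 h a day for 10 days, at 0.75 mg/kg per infusion paired with a light cue. In the extinction test, responding to the drug cue is measured as cocaine seeking. The remaining 9 arrays, used here for the estimate of spread and as a background, were saline self-administering rats (Sal) and rats after 1 day of withdrawal without (1W) or with (1C) the test, 3 arrays each. No saline group with a test was analysed here, so the test and the cocaine history it follows cannot be told apart. How long after the test tissue was taken was not given in the sources used. Whether an array held 1 rat or a pool is unstated, and p-values measure only the spread between arrays.

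The nucleus accumbens is the ventral part of the striatum, and most of its neurons are GABAergic spiny projection neurons that integrate dopamine with glutamate from cortex, amygdala and hippocampus. Cue-induced seeking of cocaine grows over weeks of abstinence, a course known as incubation of craving. When neurons are activated, calcium and cAMP signals phosphorylate CREB and the serum response factor complex, which switch on immediate early genes within minutes. Many of these encode transcription factors of the FOS, EGR and NR4A families, and others encode synaptic effectors such as ARC or phosphatases that shut the MAP kinase pathway down again.

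No gene passed the adjusted threshold, yet 4 of the 5 genes with the smallest p-values (Nfil3, Sik1, Fosl2 and Egr4, with Csrp2 the exception) and several of the largest differences belonged to immediate early genes, higher on all 3 arrays of 30C than on any of 30W. The orphan receptors Nr4a1 and Nr4a3 were 2.0-fold and 2.01-fold higher, and Egr2, Fosl2, Junb, Nfil3 and Egr4 lay between 1.46-fold and 1.77-fold. Of 32 transcription factors on the immediate early list, 30 were higher and 2 lower in 30C, with a median log2 difference of 0.20 against 0.0041 over all genes. Among the genes lower in 30C were interferon-induced chemokines, with Cxcl10 2.69-fold lower, although this difference came from 2 of the 3 arrays of 30W. Values are RMA log2 intensities, on which a difference of 1 is a doubling.

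Across all genes, limma called 0 of 11778 (0%) at an adjusted p under 0.05, and the smallest adjusted p was 0.0761, for Nfil3. At an unadjusted p under 0.05 there were 463 genes (3.93%), fewer than this cut returns on average where no gene differs. Of these, 249 (2.11% of those tested) were higher and 214 (1.82%) lower. The 3 arrays of 30C lay above all 3 of 30W for 531 genes (4.51%) and below them for 456 (3.87%). Most differences were small, with a median size of 0.047 log2 units. A difference of at least 0.5 was found for 27 genes, 18 higher and 9 lower, and 15 and 4 of these did not overlap between groups. The count of 0 was also found with another filter, normalization or variance model, whereas 1 gene, Nfil3, passed with array weights (adjusted p 0.0341 in limma). Leaving out 1C replicate 2, which is in neither group compared, also brought Nfil3 past the threshold (adjusted p 0.0358 in limma). Other settings moved Nfil3 away from it. Its limma adjusted p was 0.593 with only the 6 arrays of 30C and 30W. It was 0.510 without 30W replicate 1 and 0.419 without 30W replicate 2. Without Sal replicate 3, 1 gene passed, the LIM-domain protein gene Csrp2, lower in 30C (adjusted p 0.0349 in limma).

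The arrays differed in their content of cortical transcripts. Slc17a7, which encodes the vesicular glutamate transporter of cortical neurons and is scarce in striatal cells, was 11.22, 11.00 and 11.04 on the arrays of 30W and 12.16, 10.94 and 9.23 on those of 30C. The 30W arrays were thus alike, within 1.16-fold, while the first 30C array stood 7.63-fold above replicate 3. The means, 11.08 ± 0.12 (SD, n = 3) and 10.78 ± 1.47 (SD, n = 3), did not differ beyond this spread (exact two-sided permutation p = 0.7, the smallest possible being 0.1). The list of 17 cortical neuron markers had mean deviations of 0.82, -0.066 and -0.52 on the 30C arrays and between -0.043 and 0.15 on those of 30W. The 26 markers of spiny neurons went the other way, at -0.41, 0.075 and 0.14 in 30C and -0.036 to 0.059 in 30W. Defining genes of spiny neurons were present on every array, with Ppp1r1b (DARPP-32) at 11.80 to 12.30 and Penk at 12.39 to 12.78 over the 6 arrays. In bulk tissue, fewer cells of a type and less RNA per cell cannot be told apart. Ttr, the transthyretin gene of choroid plexus, was also uneven, at 10.20 in 30W replicate 3 and 8.83 in 30C replicate 3 against 5.86 to 6.29 on the other 4 arrays.

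Among the immediate early factors, the NR4A orphan nuclear receptors, which bind DNA without a known natural ligand, showed the largest differences. Nr4a1 (probe set 10899387) measured 9.42, 8.77 and 9.17 in 30W and 10.32, 10.01 and 10.03 in 30C. Every 30C array was above every 30W array, and the difference of 1.00 ± 0.24 (SE) had a limma adjusted p of 0.719. Nr4a3 (probe set 10868940) rested at 8.45, 8.05 and 8.19 in 30W and stood at 9.49, 9.22 and 8.99 in 30C, a difference of 1.01 ± 0.23 (SE) with the same adjusted p of 0.719 in limma. The remaining member of the family differed from these. Nr4a2, also a gene of claustrum and deep cortex, was at 10.72, 9.79 and 9.25 in 30W and 11.31, 10.20 and 8.28 in 30C, and its mean difference was 0.0094 ± 0.88 (SE). Within groups its values correlated with Slc17a7 at r = 0.947 over the 15 arrays, centred on group means.

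Nfil3 (probe set 10794225), a basic leucine zipper repressor of the clock output pathway, had the smallest p-value of all genes. It measured 7.39, 7.43 and 7.41 in 30W and 8.14, 7.87 and 7.87 in 30C, so the 30W arrays were nearly equal and all 30C arrays were higher. The difference was 0.55 ± 0.077 (SE), or 1.46-fold. Fosl2, which encodes the FOS-related AP-1 subunit FRA2, was similarly tight, at 8.94, 8.86 and 9.0 in 30W against 9.52, 9.50 and 9.50 in 30C. This gave a difference of 0.58 ± 0.11 (SE) and a limma adjusted p of 0.454. Junb, the AP-1 partner, was at 9.28, 8.87 and 9.24 in 30W and at 9.86, 9.65 and 9.64 in 30C, a difference of 0.59 ± 0.15 (SE). Fos itself lay at 7.61, 7.35 and 7.65 in 30W and at 8.37, 7.89 and 7.83 in 30C, 0.49 ± 0.15 (SE) higher. Fosb, the AP-1 gene best known from chronic cocaine, was not measured by a probe set with a single symbol.

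The EGR zinc-finger factors were higher in 30C as well. Egr2 measured 7.54, 7.02 and 7.43 in 30W and 8.35, 8.11 and 8.01 in 30C, a difference of 0.83 ± 0.17 (SE). Egr4 measured 8.04, 7.78 and 7.94 in 30W and 8.60, 8.50 and 8.30 in 30C, a difference of 0.55 ± 0.11 (SE), and both had a limma adjusted p of 0.609. Egr1, whose protein ZIF268 is a common marker of activated neurons, was 0.42 ± 0.15 (SE) higher without overlap. Egr3 was 0.20 ± 0.11 (SE) higher with overlap. The Kruppel-like factor Klf2 was 0.27 ± 0.063 (SE) higher without overlap, and the CREB-family gene Crem 0.21 ± 0.083 (SE) higher, also without overlap.

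**Figure D1:**
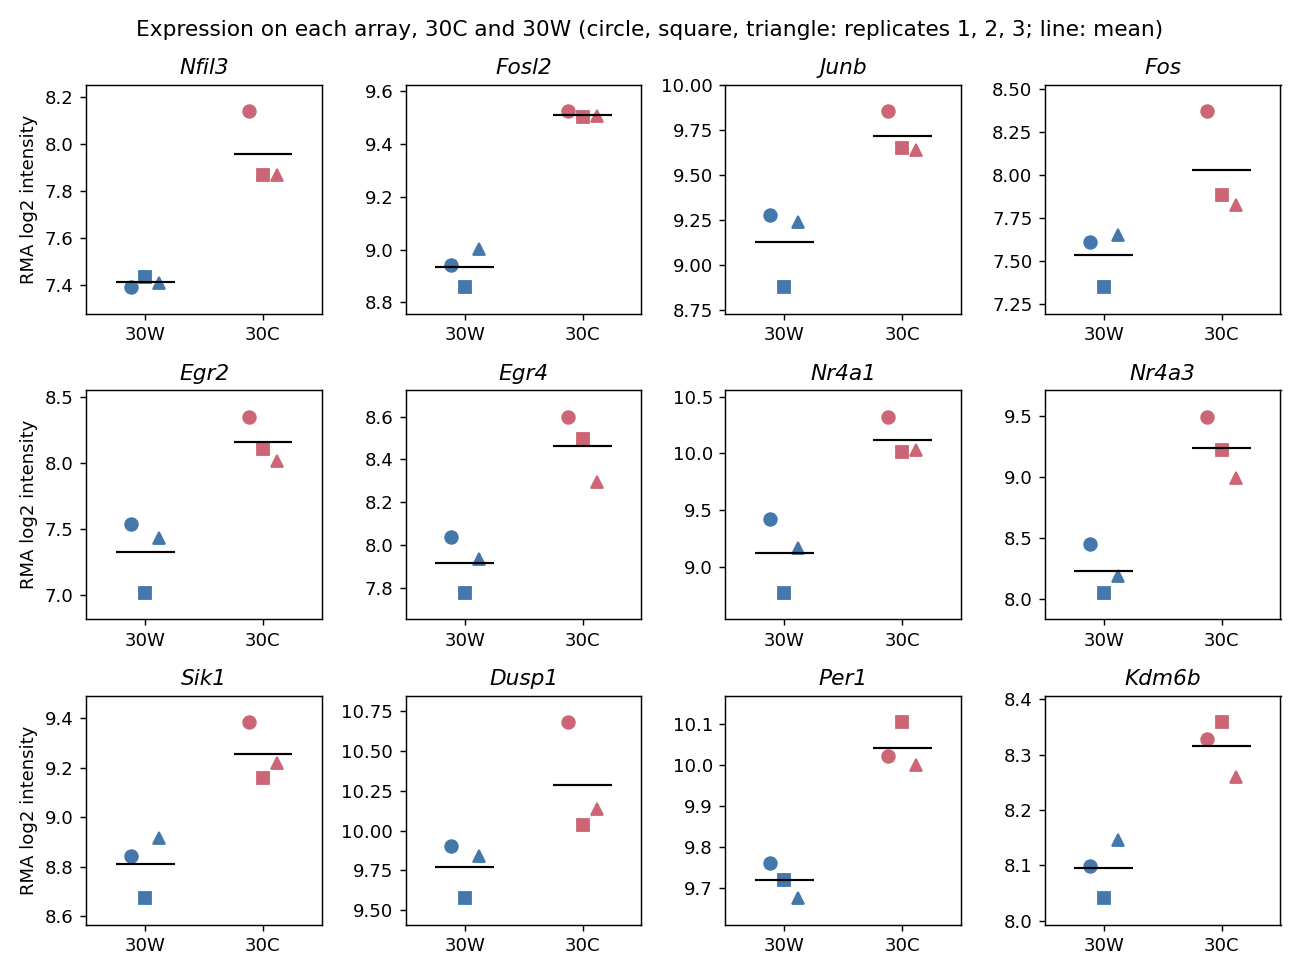
RMA log2 intensity (vertical axes, each on its own scale) of 12 genes on each array of 30W (blue) and 30C (red), with replicates 1, 2 and 3 as circle, square and triangle and the group mean as a line. In every panel all 3 points of 30C lie above all 3 of 30W, and 30C replicate 1 is the highest of its group in 10 of the 12 panels.

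In all, 16 of the 32 factors were higher without overlap, against 4.51% of all genes, and 0 were lower without overlap. At an unadjusted p under 0.05, 12 were higher, against 2.11% of all genes. In the other direction there was 1, Myc, at 6.22, 6.23 and 6.16 in 30W and 5.91, 5.91 and 6.19 in 30C. The 12 that were higher became 10 when either 30C replicate 1 or 30W replicate 2 was left out, and the median of the 32 then became 0.13 or 0.15. Members that did not separate the groups included Jun (0.22 ± 0.14, SE), Atf3 (0.17 ± 0.11, SE) and Npas4 (0.42 ± 0.37, SE). Npas4, a calcium-dependent factor specific to neurons, was 9.78, 8.42 and 9.66 in 30W and 10.15, 9.52 and 9.46 in 30C. The low value of 30W replicate 2 carried its difference, which was -0.0098 without that array. The factors Jund, Maff, Cebpd and Bhlhe40 differed by less than 0.05 log2 units in either direction.

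Promoters of these genes were read from RefSeq (build GRCr8), which had entries for 44 of the 59 factors and effectors. The first 4 below are the members with the smallest p-values that have an entry, and Nr4a1 was added after its values were seen. Each is 300 bases long, from 250 before to 50 after the annotated start, in the direction of transcription. Capitals mark TGACG, the core of the cAMP response element bound by CREB, on either strand, so that a site on the opposite strand reads CGTCA.

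Nfil3: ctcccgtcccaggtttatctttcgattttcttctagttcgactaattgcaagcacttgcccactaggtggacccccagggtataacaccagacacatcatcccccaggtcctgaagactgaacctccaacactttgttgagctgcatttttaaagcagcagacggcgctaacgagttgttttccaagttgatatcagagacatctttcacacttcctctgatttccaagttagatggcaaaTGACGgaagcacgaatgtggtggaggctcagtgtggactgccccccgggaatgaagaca

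Sik1: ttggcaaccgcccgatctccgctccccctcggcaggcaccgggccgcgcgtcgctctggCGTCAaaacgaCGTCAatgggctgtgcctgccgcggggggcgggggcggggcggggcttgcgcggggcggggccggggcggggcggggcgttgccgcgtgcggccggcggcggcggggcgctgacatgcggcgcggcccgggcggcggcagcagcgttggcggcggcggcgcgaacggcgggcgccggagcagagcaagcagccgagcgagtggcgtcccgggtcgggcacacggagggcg

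Fosl2: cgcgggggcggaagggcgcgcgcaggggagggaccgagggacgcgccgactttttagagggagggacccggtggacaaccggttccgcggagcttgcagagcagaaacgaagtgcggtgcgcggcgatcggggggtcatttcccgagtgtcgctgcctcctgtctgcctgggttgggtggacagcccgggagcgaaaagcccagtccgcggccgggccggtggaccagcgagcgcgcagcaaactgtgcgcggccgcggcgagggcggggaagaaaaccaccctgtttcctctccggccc

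Egr4: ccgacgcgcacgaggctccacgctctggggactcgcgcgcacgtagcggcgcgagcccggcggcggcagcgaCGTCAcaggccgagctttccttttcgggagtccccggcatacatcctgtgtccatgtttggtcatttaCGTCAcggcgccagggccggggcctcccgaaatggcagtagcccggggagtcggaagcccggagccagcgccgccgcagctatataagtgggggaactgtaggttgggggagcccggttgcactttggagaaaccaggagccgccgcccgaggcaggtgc

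Nr4a1: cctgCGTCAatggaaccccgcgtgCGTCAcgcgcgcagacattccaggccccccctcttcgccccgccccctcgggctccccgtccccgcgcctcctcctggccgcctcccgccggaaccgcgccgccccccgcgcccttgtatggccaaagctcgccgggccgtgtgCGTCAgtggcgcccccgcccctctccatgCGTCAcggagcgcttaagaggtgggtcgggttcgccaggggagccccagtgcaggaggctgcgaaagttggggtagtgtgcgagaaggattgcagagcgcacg

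These windows are chr17:12432126-12432425 (plus strand) for Nfil3, chr20:9958597-9958896 (minus strand) for Sik1 and chr6:30039220-30039519 (minus strand) for Fosl2. Those of Egr4 and Nr4a1 are chr4:119607768-119608067 (minus strand) and chr7:134259888-134260187 (plus strand). Counting the start base as 0, the core of Nfil3 lies at -9 to -5. Sik1 has a pair, at -191 to -187 and -180 to -176, and Egr4 has sites at -178 to -174 and -110 to -106. Nr4a1 has 4, of which the nearest to the start lies at -53 to -49, whereas the Fosl2 window holds none. Over the list, 15 of the 21 factors with an entry (71.4%) had the core in a listed window, compared with 30.1% of the 9724 tested genes with an entry and 23.0% of all 27457 genes in the table. The full palindrome TGACGTCA, which contains the core, was present for 4 of the 21 (19.0%), against 2.89% of tested genes and 2.0% of all. The CArG box of the serum response factor was present for 4 as well, against 1.34% of tested genes and 1.77% of all. The AP-1 site TGANTCA was found in 0 of the 21, and in 5.55% of tested genes and 8.04% of all. These are matches of letters only, searched on both strands, and genes with several annotated starts count once.

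The kinase gene Sik1 had the smallest p-value of the 27 activity-induced effectors, and Arc the largest difference. Its product, a salt-inducible kinase, holds CREB coactivators and class II histone deacetylases in the cytoplasm. Sik1 measured 8.84, 8.67 and 8.92 in 30W and 9.38, 9.16 and 9.22 in 30C, and all arrays of 30C were higher. The difference was 0.44 ± 0.075 (SE), with a limma adjusted p of 0.271. Arc, the synaptic scaffold that promotes removal of AMPA receptors, was at 9.83, 9.15 and 9.69 in 30W and 10.52, 10.07 and 9.90 in 30C. Here the groups nearly touched, and the difference of 0.60 ± 0.26 (SE) became 0.40 without 30W replicate 2 and 0.43 without 30C replicate 1. Ptgs2 (cyclooxygenase 2) and the pseudokinase gene Trib1 were 0.37 ± 0.18 and 0.36 ± 0.14 (SE) higher without overlap.

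Of the 27 effectors, 21 were higher and 6 lower, 6 were higher without overlap, against 4.51% of all genes, and the median difference was 0.11. Homer1, Plk2, Rgs4 and Nefm, all neuronal activity genes, differed by less than 0.05. Bdnf, the neurotrophin, was at 6.00, 6.06 and 6.00 in 30W and at 6.00 on 2 of the 3 arrays of 30C, with 6.48 on 30C replicate 1. Nrn1 (neuritin) was at 9.25, 7.86 and 6.95 in 30C against 7.92 to 8.07 in 30W, the order of Slc17a7 on those arrays. The 18 feedback inhibitors of MAP kinase signalling included 15 higher and 3 lower, with 5 higher without overlap, against 4.51% of all genes, and a median of 0.078. The phosphatase gene Dusp1 measured 9.91, 9.57 and 9.84 in 30W and 10.68, 10.04 and 10.14 in 30C, 0.51 ± 0.19 (SE) higher. Dusp4 and the Sprouty gene Spry4 were 0.40 ± 0.12 and 0.24 ± 0.089 (SE) higher without overlap.

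Whether shifts shared by many genes follow the cortical content of the arrays was examined with slopes on Slc17a7 taken from the 9 arrays of Sal, 1W and 1C. No array entered both a slope and a difference. Among these 9 arrays, Slc17a7 was 7.16 on Sal replicate 1, against 11.52 and 12.02 on the other Sal arrays. In 1W and 1C it lay between 9.83 and 11.56. The slopes, the correlations within groups and the fit with Slc17a7 as covariate therefore lean on Sal replicate 1. Across 11777 genes, the slope correlated with the difference of 30C replicate 1 from the mean of 30W at r = 0.48 (Spearman 0.22). With replicate 3, the array of lowest Slc17a7, the correlation was -0.52 (Spearman -0.34), and with replicate 2 it was -0.021 (Spearman 0.016). For the mean of the 3 arrays it was 0.059 (Spearman 0.019). The value near 0 rested on replicates 1 and 3, since over all 11778 genes the correlation was -0.37 without 30C replicate 1 and 0.38 without replicate 3. For single 30W arrays against the other 2, it lay between -0.095 and 0.13. Genes are not independent replicates and share probes, RNA and normalization on each array, so these are descriptions.

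**Figure D2:**
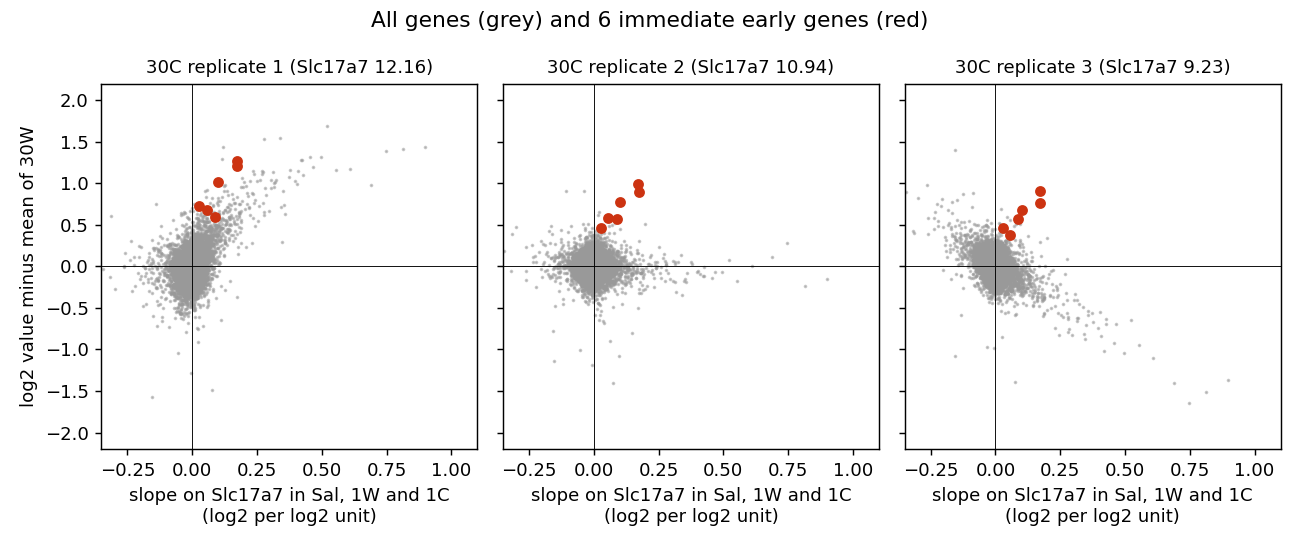
Each panel plots, for one 30C array, the log2 value minus the mean of 30W (vertical) against the slope on Slc17a7 fitted in Sal, 1W and 1C (horizontal, log2 units per log2 unit of Slc17a7); grey points are all genes except Slc17a7 and red points are Nfil3, Fosl2, Nr4a1, Nr4a3, Egr2 and Egr4. The grey cloud tilts up for replicate 1 (r = 0.48), is flat for replicate 2 and tilts down for replicate 3 (r = -0.52). The 6 red genes were taken from those with all 3 arrays of 30C above all 3 of 30W. By that choice they lie above 0 in all 3 panels.

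Genes whose values followed Slc17a7 most closely over the 15 arrays, centred on group means, were the neuropeptide gene Cck (r = 0.986) and the cortical transcription factor gene Neurod6 (r = 0.982), followed by Ccn3, Galnt14, Nptx1, Nrcam, Nxph3 and Slc30a3. Cck measured 11.12, 10.54 and 10.81 in 30W and 11.81, 10.94 and 9.42 in 30C, in the order of Slc17a7 on the 30C arrays. The most negative correlation was that of the centrin gene Cetn3 (r = -0.935), then Anp32b, Adi1, Stxbp2, Sdc2, Prok2, Mbip and Araf. None of these 16 separated 30C from 30W by more than 0.11 log2 units in the mean. Since they were chosen for following Slc17a7, this mirrors its own mean difference of -0.31 ± 1.03 (SE). Single arrays of 30C did shift, as with Neurod6 at 10.08 on replicate 1 and 7.15 on replicate 3, against a mean of 8.66 in 30W.

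Of the 32 immediate early factors, 27 (84.4%) had a positive slope, against 43.8% of all genes, and the median correlation with Slc17a7 within groups was 0.54. On 30C replicate 1, 24 of the 32 lay above all 3 arrays of 30W, against 33.8% of all genes. On replicate 2, whose Slc17a7 was close to that of 30W, the number was 19, against 21.4% of all genes. On replicate 3, where Slc17a7 was lowest, it was 20, against 29.4%. Below all 3 arrays of 30W lay 3, 2 and 5 of the 32 on replicates 1, 2 and 3, against 26.3%, 27.7% and 23.8% of all genes. With the Slc17a7 level as a covariate, limma called 3 of 11777 genes (0.0255%), all of them immediate early factors. These were Nfil3 (difference 0.56 ± 0.067 SE, adjusted p 0.0182 in limma), Fosl2 (0.60 ± 0.085 SE, adjusted p 0.0450) and Nr4a3 (1.06 ± 0.15 SE, adjusted p 0.0450). Egr2, Egr4, Sik1 and Nr4a1 followed, each with an adjusted p between 0.0789 and 0.0792 in limma. With the cortical marker score in its place, Nfil3 alone passed (adjusted p 0.00639 in limma).

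The 30C values were also set against all 12 other arrays, which include Sal, 1W and 1C. All 3 arrays of 30C exceeded every other array for 27 genes (0.229%) and were below every other array for 34 (0.289%). Immediate early factors were 9 of the 27, namely Nr4a1, Nr4a3, Egr2, Egr4, Fos, Fosl2, Junb, Nfil3 and Klf2. Nr4a1, for example, reached 9.89 at most among Sal, 1W and 1C, just below the lowest 30C value of 10.01. Sik1 and Per1 were among the 27 as well, and so were the chromatin genes Kdm6b, a demethylase of histone H3 lysine 27, and Hdac4. Kdm6b measured 8.10, 8.04 and 8.15 in 30W and 8.33, 8.36 and 8.26 in 30C, 0.22 ± 0.048 (SE) higher, with hardly any relation to Slc17a7 (r = 0.022).

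Further genes with small p-values or large differences were outside the activity lists. Pgls, an enzyme of the pentose phosphate pathway, was 0.20 ± 0.042 (SE) higher. Rnd3, whose product loosens actin fibres, measured 7.88, 7.52 and 7.66 in 30W and 8.27, 8.05 and 8.09 in 30C, but Sal and 1C had means of 8.07 and 8.13. Sult1c2, a sulfotransferase gene, was 0.68 ± 0.18 (SE) higher than in 30W, while its mean in Sal, 7.10, was above the 30C mean. For these 2 genes the 30W arrays were low among the 5 groups. Apold1, an immediate early gene of endothelial cells, was 0.62 ± 0.24 (SE) higher, and Trhr, the receptor for thyrotropin-releasing hormone, 0.56 ± 0.22 (SE) higher. For Trhr, too, 30W was low, with a mean of 6.16 against 6.57 in Sal, 6.50 in 1W and 6.77 in 1C. Limma adjusted p-values of Sult1c2, Apold1 and Trhr were 0.999.

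Whether the test had the same effect after 1 day of withdrawal is a separate question, answered by the interaction of test and withdrawal. Limma called 0 of 11778 genes (0%) for it, with a smallest adjusted p of 0.999, and 357 had an unadjusted p under 0.05. For 188 of these (1.6%) the difference was larger at 30 days and for 169 (1.43%) smaller. Of the 32 factors, 27 had a larger value at 30 days, against 6354 of all 11778 genes. Their median log2 difference was 0.20 for 30C minus 30W and 0.092 for 1C minus 1W. Over all genes these medians were 0.0041 and -0.0047. At an unadjusted p under 0.05 there were 4, all larger at 30 days, and these were Nfil3, Egr4, Klf2 and Ier2. Nfil3 differed by 0.10 ± 0.077 (SE) at day 1, an interaction of 0.45 ± 0.11 (SE). For Nr4a1, the day 1 difference was 0.37 ± 0.24 (SE) and the interaction 0.63 ± 0.34 (SE). Fos, by contrast, had 0.39 ± 0.15 (SE) at day 1 and 0.49 at day 30, with an interaction of 0.11 ± 0.22 (SE). The 2 comparisons share no array, and over the 32 factors their differences correlated at r = 0.79 (Spearman 0.76), against 0.12 (Spearman 0.086) over all genes. Members also varied by unequal amounts within an untested group, such as Nr4a3 from 7.91 to 8.96 and Nfil3 from 7.49 to 7.62 in Sal. The part of such variation in this correlation was not tested.

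**Figure D3:**
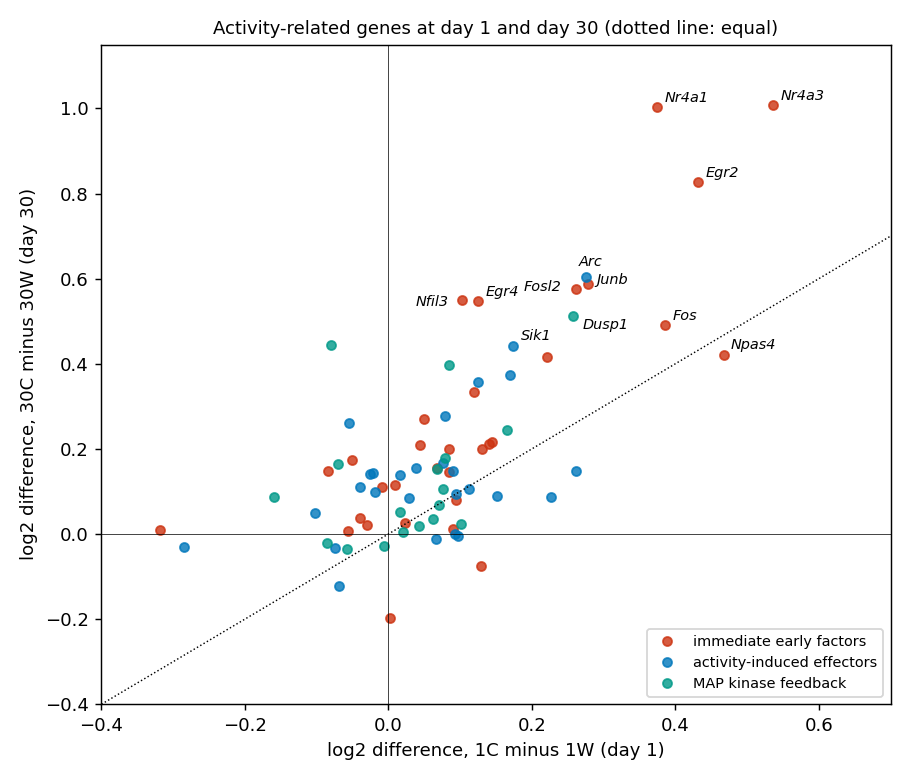
Log2 difference of 30C from 30W (vertical) against that of 1C from 1W (horizontal) for 32 immediate early factors (red), 27 effectors (blue) and 18 MAP kinase feedback genes (green), each point 1 gene. Most named genes lie above the dotted line of equality. Most of them were taken for a small p-value or large difference at 30 days, a choice that itself favours that side. Nr4a1 lies at 0.37 and 1.00, Nfil3 at 0.10 and 0.55, and Npas4 just below the line at 0.47 and 0.42. No interaction passed the adjusted threshold.

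The genes leading the interaction outside these lists had differences of opposite sign at the 2 times. Pgls was 0.20 higher at 30 days and 0.083 lower at day 1, and Ctla2a, Nagk, Or10p22 and Fez2 had the same signs. In the other direction, the class I histocompatibility gene RT1-CE13 was 0.26 ± 0.059 (SE) higher in 1C than in 1W and 0.13 ± 0.059 (SE) lower in 30C than in 30W. Lgals3, Kpna4, Acsl3, Cybrd1 and Them7 followed. None passed (adjusted p 0.999 in limma).

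Of the interferon-induced genes, 22 of 24 were lower in 30C, with a median of -0.12, against 0.0041 over all genes. At an unadjusted p under 0.05, 5 were lower, against 1.82% of all genes, and 4 were lower without overlap, against 3.87%. Cxcl10, a chemokine that attracts T cells, measured 8.51, 6.53 and 8.42 in 30W and 6.33, 6.42 and 6.42 in 30C. It was therefore high on 30W replicates 1 and 3 only, with replicate 2 close to 30C, and the difference was -1.43 ± 0.61 (SE). Across the remaining 9 arrays, Cxcl10 lay between 6.16 and 6.75 except on 1C replicate 2, at 9.28. Cxcl11 and Cxcl9, chemokines of the same receptor that are not on the list, differed by -1.15 ± 0.38 and -0.63 ± 0.23 (SE). Both were highest on 30W replicates 1 and 3 and 1C replicate 2. Cxcl9 passed the filter only through those 3 arrays, and in 30C it lay below the filter level, at 5.07, 5.23 and 5.28. The guanylate-binding protein gene Gbp5 stood at 7.74, 6.61 and 7.40 in 30W and 6.78, 6.35 and 6.91 in 30C, so its groups overlapped.

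Ifit2, which restrains translation of viral RNA, was at 6.94, 6.72 and 7.01 in 30W and 6.53, 6.51 and 6.59 in 30C, a difference of -0.35 ± 0.086 (SE). Its 3 highest arrays were the same as those of Cxcl10, but 30W replicate 2 was also above all of 30C. Bst2 (tetherin) was at 5.97, 5.99 and 6.04 in 30W and 5.76, 5.81 and 5.81 in 30C, with all 3 arrays of each group close together. Isg15, the ubiquitin-like modifier, differed by -0.25 ± 0.095 (SE) without overlap. The limma adjusted p-values were 0.863 for Ifit2 and 0.999 for the others. The number at an unadjusted p under 0.05 became 11 when 30W replicate 2 was left out and 2 when 30W replicate 3 was. It was 3 on leaving out either 30W replicate 1 or 30C replicate 2. At day 1 the median of the list was 0.10, and 17 of 24 were higher in 1C. The blood marker list and the microglial list had medians of -0.033 and -0.0032 in 30C against 30W. Of the 24 microglial markers, 11 were higher and 13 lower, and 2, Ptprc and Aif1, were lower without overlap, against 3.87% of all genes. Ptprc and Aif1 differed by -0.20 ± 0.10 and -0.16 ± 0.073 (SE), whereas C1qb and Cx3cr1 differed by 0.14 ± 0.10 and 0.0084 ± 0.051 (SE). The part of immune cells in the interferon difference was not tested.

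**Figure D4:**
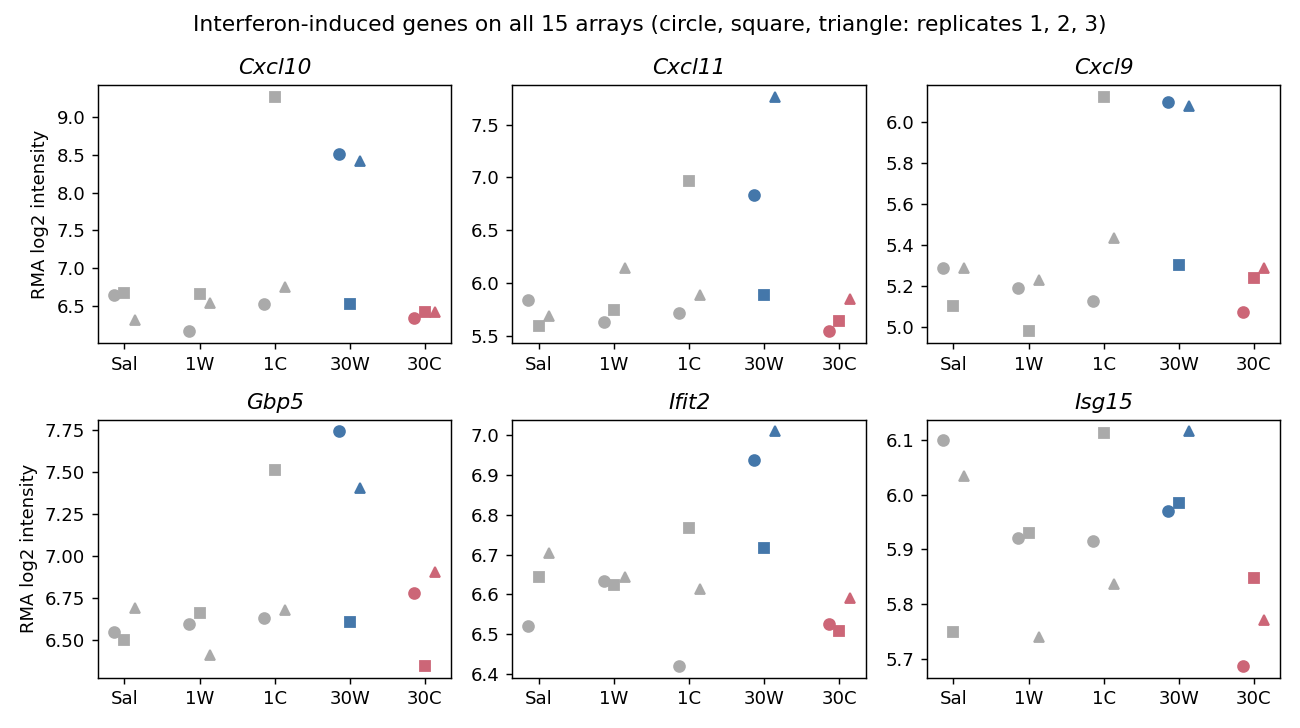
RMA log2 intensity (vertical axes, each on its own scale) of 6 interferon-induced genes on all 15 arrays in 5 groups, with 30W in blue, 30C in red and the others grey, and replicates 1, 2 and 3 as circle, square and triangle. Cxcl10, Cxcl11, Cxcl9 and Gbp5 are high on 30W replicates 1 and 3 and 1C replicate 2, and these are the 3 highest arrays for each of these 4 genes.

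Csrp2 had the smallest p-value among genes lower in 30C. It measured 6.89, 6.84 and 6.91 in 30W and 6.56, 6.50 and 6.51 in 30C, a difference of -0.36 ± 0.067 (SE) with a limma adjusted p of 0.447. Means of 6.62 in Sal and 6.69 in 1W place the 30W arrays above all of these groups. Kng1, the kininogen gene, was at 7.77, 7.28 and 7.48 in 30W and 6.60, 7.04 and 6.66 in 30C, -0.74 ± 0.16 (SE), and it too was highest in 30W, with a mean of 7.19 in Sal. The others taken by p-value were Nat8f1, Pcdh11x, Cyp3a9, Znrf4, Thap1, Nr1i3, St6galnac2 and Gata5, each lower by between 0.15 and 0.31 log2 units. Those taken by size, Ndufs6-ps1, 1700013G24Rikl and Or6b3, were each lower by 0.30 to 0.31.

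Clock genes differed in both directions. Per1, a core clock repressor that CREB also induces, was at 9.76, 9.72 and 9.67 in 30W and 10.02, 10.10 and 10.00 in 30C, a difference of 0.32 ± 0.076 (SE). Nr1d2 and Nr1d1, the REV-ERB receptors that repress Bmal1, were both lower without overlap. Nr1d2 measured 10.15, 10.14 and 10.13 in 30W and 9.88, 9.99 and 9.97 in 30C, -0.19 ± 0.048 (SE), and Nr1d1 differed by -0.18 ± 0.067 (SE). Tef differed by -0.14 ± 0.064 (SE), and Bmal1 and Per2 differed by 0.086 ± 0.046 and 0.11 ± 0.066 (SE). Of the 15 clock genes, 7 were higher and 8 lower. The part of the hour of dissection was not tested.

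Glucocorticoid-responsive genes gave no common direction, with 9 of 19 higher and a median of -0.0001. At an unadjusted p under 0.05 there were 2, both higher, against 2.11% of all genes, and neither overlapped between groups. Cdkn1a, a cell cycle inhibitor, measured 7.73, 7.88 and 8.23 in 30W and 8.48, 8.44 and 8.51 in 30C, 0.53 ± 0.16 (SE) higher. Pdk4, which restrains pyruvate dehydrogenase, was 0.55 ± 0.20 (SE) higher. Fkbp5, the stress-responsive chaperone gene, differed by -0.059 ± 0.093 (SE) and Sgk1 by 0.29 ± 0.14 (SE). Heat shock and protein-folding genes were higher in 20 of 24, though their median was 0.044 and the largest, Hspb1, was 0.32 ± 0.15 (SE).

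Receptor and channel genes of the synapse had no common direction. AMPA and NMDA receptor genes and partners were split, 13 higher and 13 lower, with Gria1 at -0.018 ± 0.055, Gria2 at -0.028 ± 0.048 and Grin2b at 0.068 ± 0.081 (SE). At an unadjusted p under 0.05 there was 1 in each direction, against 2.11% of all genes higher and 1.82% lower. These were the auxiliary subunit gene Cacng2, 0.18 ± 0.081 (SE) higher, and the NMDA receptor subunit gene Grin3b, at -0.21 ± 0.081 (SE), both with overlap. Another 1 of the list was lower without overlap, against 3.87% of all genes. Of 44 potassium channel genes 22 were higher and 22 lower, and 3, Kcnf1, Kcng1 and Kcnh1, were higher without overlap, against 4.51% of all genes. The 3 with an unadjusted p under 0.05 were Kcna3, Kcnk3 and Kcnf1, all higher, against 2.11% of all genes, and of these Kcnf1 alone did not overlap (0.25 ± 0.11, SE). The delta subunit of the GABA-A receptor, Gabrd, had an overlapping difference of -0.26 ± 0.098 (SE). Among neuropeptide genes, Crhbp was 0.38 ± 0.17 (SE) higher.

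Dopamine and cAMP signalling genes were lower in 17 of 24, and spiny neuron markers in 23 of 26, with medians of -0.084 and -0.091. Drd1 measured 10.16, 10.09 and 10.24 in 30W and 9.54, 10.20 and 10.16 in 30C. Only 30C replicate 1, the array of highest Slc17a7, was low. Without it, 1 of the 26 spiny markers was lower in 30C and the median was 0.079. Drd2, Adora2a, Pdyn, Tac1 and Penk were also lowest on that array among the 6. None of the 26 had an unadjusted p under 0.05. Oligodendrocyte markers were lower in 22 of 23, by a median of -0.10, with 7 lower without overlap against 3.87% of all genes. Mbp, the myelin basic protein gene, was at 12.28, 12.33 and 12.24 in 30W and 12.18, 12.26 and 12.10 in 30C. None of the 23 had an unadjusted p under 0.05, and at day 1 their median was -0.19, with all 23 lower in 1C.

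Of the remaining lists, neurotrophic factors and receptors were higher in 14 of 18, with a median of 0.086. Vegfa, the vascular growth factor gene, differed by -0.24 ± 0.079 (SE), lower in 30C without overlap, while Ngfr, the p75 neurotrophin receptor gene, was at 6.68, 6.74 and 6.72 in 30W and 6.99, 7.20 and 7.59 in 30C. That places all 3 arrays of 30C above 30W for Ngfr, with replicate 3 the highest. Mitochondrial respiratory chain genes were lower in 26 of 41, with a median of -0.019, and 0 had an unadjusted p under 0.05. Astrocyte markers had a median of 0.016 and endothelial and mural markers one of -0.053.

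**Figure D5:**
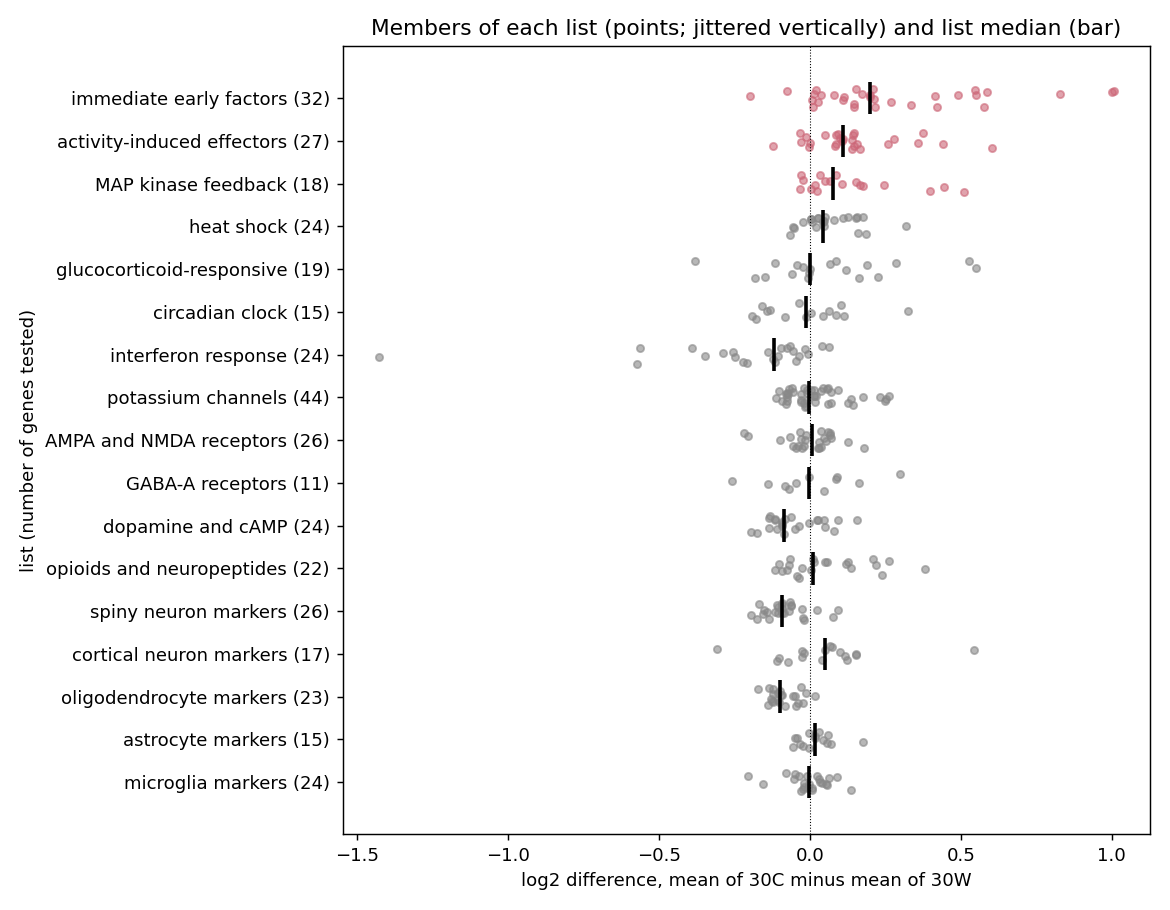
Log2 difference of 30C from 30W (horizontal) for the tested members of 17 gene lists (vertical, number of genes in brackets), with 1 point per gene, jittered vertically, and the list median as a bar. The 3 activity-related lists (red) lie mostly to the right of 0, with medians of 0.20, 0.11 and 0.078, while interferon genes extend to the left as far as Cxcl10 at -1.43.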

How the data were processed

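RNA of the nucleus accumbens was measured on Affymetrix rat arrays. The deposited table holds log2 values, and RMA is the method that the submitters' processing notes name, with no version. RMA corrects background, brings arrays to a common scale and sums probes into 28826 probe sets. The labels' protocols name a 3' labelling kit while the identifiers belong to a whole-transcript array. Genes were named by the platform annotation (15209 probe sets with 1 symbol, 306 with several and 13311 unnamed here). Each gene was represented by its probe set of highest mean. A gene was kept if it exceeded the 30th percentile on at least 3 arrays.

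One limma model (limma 3.58.1, R 4.3.3, lmFit and eBayes) was fitted over all 15 arrays with group as its only term, leaving 10 residual degrees of freedom and 3.44 prior ones, with Benjamini-Hochberg adjustment over all genes. The number of arrays limits the precision. The fit was tested on simulated data. Slopes, counts and figures were made in Python 3.11.15. The gene lists, alternatives and genes taken by name were chosen with earlier results of these data known. Named genes were, among genes without overlap, up to 12 per direction by p-value and up to 6 more by size, plus 4 per list by p-value, a set of known genes, the 6 per direction leading the interaction, and the 8 per direction most like Slc17a7 or leading the fit with it as covariate. Other members of lists were named after their values were seen. Same-numbered arrays of 30C and 30W deviated together weakly (r = 0.101, 0.159 and 0.148). The labels state no pairing, so the samples were not paired in this model. Replicate number entered as a block in 1 alternative only.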

Additional observations from a re-analysis of the deposited data

How the results depend on the processing

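With no gene past the threshold in limma, 0 also passed without a filter, with a stricter one, with the mean of all probe sets, with further quantile normalization or median centring, with trended and robust variances, and with only the 6 or the 12 cocaine arrays. Array weights gave 1 gene past it, Slc17a7 as covariate 3, the cortical score 1 and an adjusted p under 0.10 also 1, and leaving out each array gave 0 to 1. With replicate number as a block, to allow for pairing, 0 genes passed, Nfil3 had an adjusted p of 0.324 in limma, and no other call changed. The interaction gave 0 in every setting run; it could not be fitted on 6 arrays. Leaving out 1 array gave 878 to 1352 genes higher without overlap and 838 to 1256 lower, since fewer arrays separate more easily. It moved the Slc17a7 difference from -0.31 to between -1.0 and 0.46 and the correlation of the slope with the difference from 0.051 to between -0.37 and 0.38. The count of interferon genes at an unadjusted p under 0.05 ranged from 2 to 11, and the count of spiny markers lower in 30C from 1 to 24, with a median from -0.19 to 0.079. Those 2 lists were recomputed without single arrays as an addition made after the data were seen.

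Of 1714 values for 65 genes, 1670 kept direction and side of the threshold, 7 newly passed and 37 reversed. Array weights turned Drd2 (0.027), Pdyn (0.0024), Tac1 (0.034) and Oprk1 (0.0041), and the Slc17a7 covariate turned Neurod6 (0.15). The remaining log2 differences that reversed are given as their range with 1 array left out. Values ran for Grm5 from -0.11 to 0.037, Drd1 from -0.31 to 0.015, Ppp1r1b from -0.22 to 0.028 and Penk from -0.19 to 0.0020. Values ran for Hbb from -0.014 to 0.28, Npas4 from -0.0098 to 0.67, Homer1 from -0.055 to 0.011 and Bdnf from -0.021 to 0.22. Values ran for Drd2 from -0.16 to 0.12, Adora2a from -0.30 to 0.074, Pdyn from -0.20 to 0.11 and Tac1 from -0.21 to 0.16. Values ran for Cartpt from -0.25 to 0.12, Gria1 from -0.037 to 0.0026, Oprk1 from -0.20 to 0.12 and Fkbp5 from -0.11 to 0.014. Values ran for Neurod6 from -0.87 to 0.59, Gfap from -0.14 to 0.058, Cx3cr1 from -0.013 to 0.030 and Ttr from -1.35 to 0.95. The cause of these reversals was not tested.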
